A study of Bos taurus with 20 samples.

Results

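The transcripts described here are those of 10 genes of the bone and cartilage lineages, RUNX2, SP7, DLX5, ALPL, SPP1, SOX9, SOX5, SOX6, ACAN and COMP, which were taken by their symbols from the 33063 named genes of the count table. They were followed in 20 clones of bovine mesenchymal stem cells (MSCs) from calf adipose tissue, with 1 library per clone. Each clone was grown from a single cell, sorted from an MSC culture that had already been passaged. The 10 adipogenic (A) clones formed lipid-filled cells in an adipogenic differentiation test and the 10 non-adipogenic (N) clones did not. Animals 17 and 20 gave 1 A and 1 N clone each, and animals 22 and 23 gave 4 of each kind. Clones are named here by condition, animal and clone number, so N 17-23 is the non-adipogenic clone 23 of animal 17. RNA was taken from undifferentiated cultures kept in medium with serum and basic FGF, with no osteogenic or chondrogenic induction, and a clone stands for 1 founder cell of its animal.

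MSCs can give rise to bone, cartilage and fat cells, and the choice among these fates is set in part by transcription factors that act early in each lineage. In bone, RUNX2 and then SP7 (osterix) direct the osteoblast programme, whose products include alkaline phosphatase and the matrix proteins that hold mineral. In cartilage, SOX9 acts with SOX5 and SOX6 on the genes of the cartilage matrix. MSCs in culture are known to carry transcripts of several of these regulators without forming the tissue.

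Total counts per clone ranged from 14615493 to 43111345. Levels are given as CPM, the counts of a gene relative to the total of its library, scaled by library size and TMM factor, with SD over the 10 clones of a group, and a level of 0 allows up to 3 counts, or between 0.0764 and 0.216 CPM depending on the depth of the clone. In bulk RNA a higher level in more cells and more RNA per cell cannot be told apart. The strand setting of the counting is not stated, so counts of genes that overlap others are uncertain. The 7 MSC markers checked, among them ENG, THY1 and NT5E, all had enough counts to be tested. Of these, 0 were called different between A and N clones by edgeR or DESeq2, with 0 at an unadjusted p under 0.05. Of all 12900 genes tested, edgeR called 20.6%, and 4663 had an unadjusted p under 0.05. Single N clones were low in some of the MSC markers. N clones ranged from 0.508 to 409 CPM for NT5E, from 0.395 to 204 CPM for THY1 and from 19.1 to 661 CPM for ENG. The lowest A clones had 65.2, 18.0 and 242 CPM. The 7 markers added up to the least in N 22-5, at 2788 CPM. BGLAP (osteocalcin) and COL2A1 (the main cartilage collagen), which define mature osteoblasts and chondrocytes, held at most 3 counts in any clone. Other markers of these cells were higher, such as the cartilage collagen COL11A2, with more than 3 counts in all 20 clones and up to 11.8 CPM, and MATN3, with up to 6.81 CPM. Clones N 22-5 and N 22-9 stood apart by 7 mesothelial markers, whose levels added up to 9198 and 6512 CPM there. That sum lay between 8.82 and 276 CPM for the remaining 8 N clones and between 7.73 and 1095 CPM for A clones.

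The first comparison asked whether lineage genes other than those of fat set the 2 kinds of clone apart. Of the 10 genes, RUNX2, SPP1, SOX9, SOX5 and SOX6 had enough counts to be tested, and 0 of these 5 were called different. A call here means an adjusted p below 0.05 in edgeR's F test, with animal as a block and adjustment by Benjamini-Hochberg over 12900 genes. None of the 5 had an unadjusted p under 0.05, and DESeq2 and limma-voom also called 0 of them. Of all genes tested, 20.6% were called, 10.3% higher and 10.3% lower in A clones. The other 5 genes, SP7, DLX5, ALPL, ACAN and COMP, had too few counts for the filter and were fitted together with all 23383 genes that had at least 1 count, of which 11.8% were called. In that fit DLX5 was called higher in A clones, and SP7, DLX5 and COMP had an unadjusted p under 0.05. The share of all genes at that unadjusted p in the same fit is not given here. Among the 12900 genes past the filter it was reached by 4663.

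**Figure D1:**
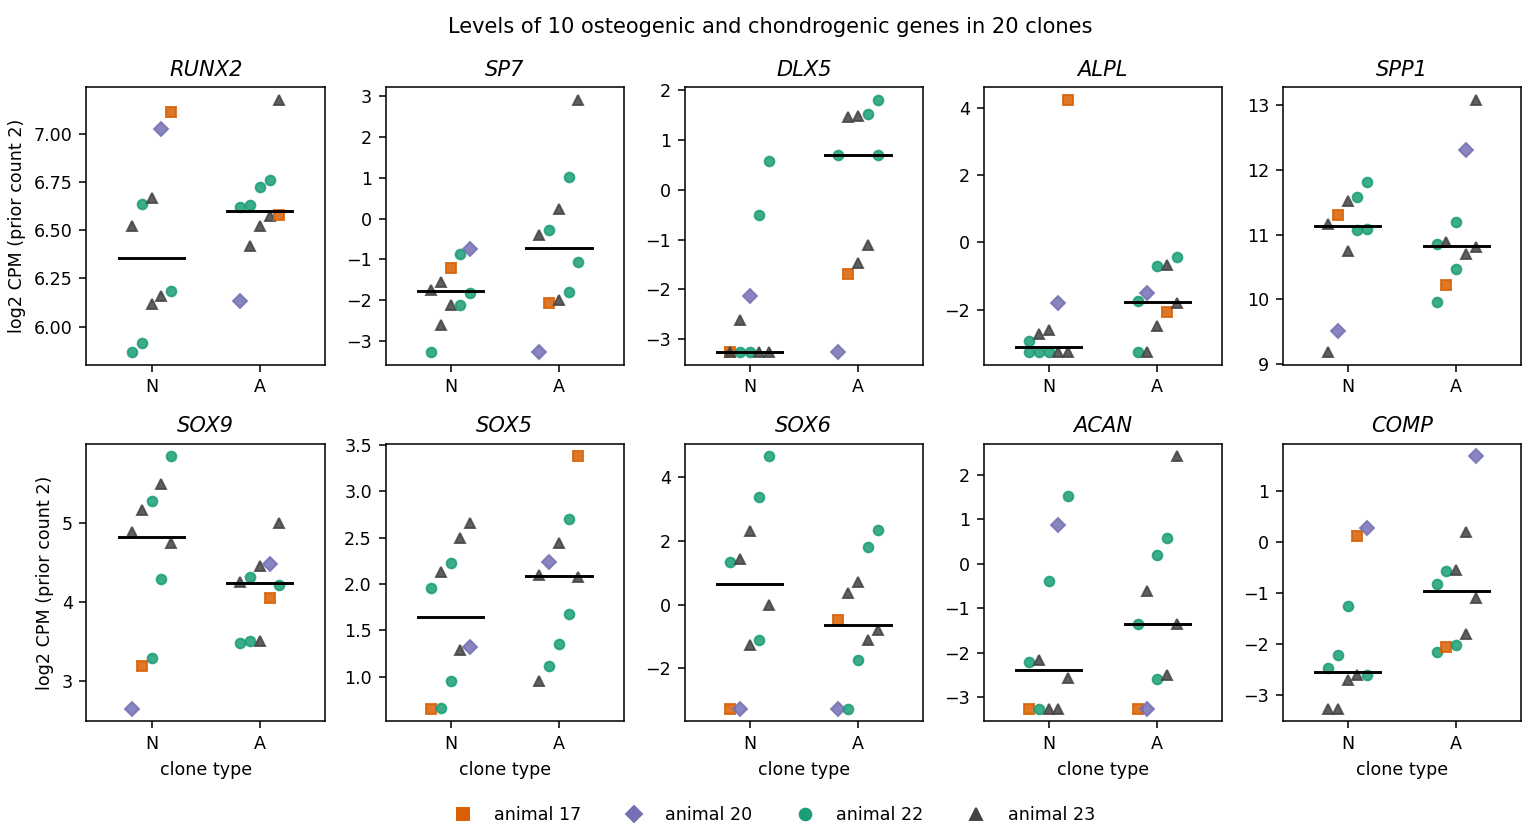
Level of each gene in the 20 clones, as log2 CPM with a prior count of 2, in N and A clones; each point is a clone, colours and shapes give the animal, and the bar is the median of 10 clones. DLX5 was highest in A clones of animals 22 and 23, ALPL in the single clone N 17-23 at 18.7 CPM, and each of the 10 genes overlapped between the groups.

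RUNX2, the transcription factor that commits cells to the osteoblast lineage, was present in every clone. Its level ranged from 58.3 to 138 CPM in N clones, with a median of 82.3 CPM, and from 70.0 to 145 CPM in A clones, with a median of 97.0 CPM. The groups overlapped, with 1 A clone (A 23-68) above every N clone and 3 N clones below every A clone. The mean was 89.3 ± 28.1 CPM for N and 99.4 ± 19.2 CPM for A (SD, n = 10 each). The log2 fold change was 0.19 (SE 0.161, adjusted p = 0.405). Its 95% interval, -0.15 to 0.53, lay inside a 2-fold change in either direction. Within animals RUNX2 was lower in the A clone of animals 17 and 20, by 0.53 and 0.89 on the log2 scale, and its mean was higher in A clones of animals 22 and 23, with differences of 0.53 and 0.31. Left without animal 22, the fold change turned to -0.02.

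SP7, the zinc finger factor that acts after RUNX2 in osteoblasts, was near the limit of detection in most clones. N clones held 0 to 10 counts, or 0 to 0.491 CPM with a median of 0.187 CPM. A clones held 0 to 120 counts, or 0 to 7.35 CPM with a median of 0.516 CPM. The highest level, in A 23-62, made up 58.5% of the sum over A clones, and the next A clone, A 22-27, had 1.90 CPM. In total 5 A clones exceeded the highest N clone, all from animals 22 and 23, whereas in animals 17 and 20 the N clone was the higher. In the fit of all genes the log2 fold change was 2.13 (SE 0.917, 95% interval 0.20 to 4.05, adjusted p = 0.140). Without A 23-62 it was 1.27 (adjusted p = 0.277), and DESeq2's Wald test gave 2.22 (adjusted p = 0.0290).

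DLX5, a homeobox factor that acts in osteoblasts and in the developing skeleton, was absent or low in N clones and detected in most A clones. In animal 22 the A clones had 1.51, 1.52, 2.77 and 3.40 CPM and the N clones 0, 0, 0.600 and 1.39 CPM. In animal 23 the A clones had 0.256, 0.36, 2.63 and 2.69 CPM and the N clones 0, 0, 0 and 0.0590 CPM. So every A clone of these animals lay above every N clone of its own animal, a separation that 1.99% of the 23383 genes with a count also showed. In animal 17 the A clone had 3 counts and the N clone 0, and in animal 20 the A clone had 0 and the N clone 2, all within the limit of 3 counts. Over all clones the mean was 1.53 ± 1.28 CPM for A and 0.217 ± 0.452 CPM for N (SD, n = 10 each). The highest N clone was exceeded by 6 A clones. The N clone of greatest depth, N 22-18, had 0 counts, which allows up to 0.0764 CPM.

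The log2 fold change of DLX5 was 3.10 (SE 0.972, 95% interval 1.06 to 5.15, adjusted p = 0.0459). The call was a narrow one. It was lost in 14 of the 20 fits that left out 1 clone each, in which the adjusted p ranged from 0.0158 without N 22-17 to 0.0814 without N 23-10. The clones whose removal ended the call were N 17-23, N 22-5, N 22-9, all 4 N clones of animal 23, A 17-57, A 22-11, A 22-16, A 22-27, A 23-14, A 23-62 and A 23-68. The fold change stayed between 2.87 and 4.02 in these fits. Without the animal block the adjusted p was 0.0823, while DESeq2 gave 0.00337 and limma-voom 0.00829. The call was also lost without animal 23, where the log2 fold change was 1.90 (adjusted p = 0.443), without N 22-5 and N 22-9 (adjusted p = 0.0874), and with counts summed per animal and condition (2.97, adjusted p = 0.531).

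ALPL, the tissue-nonspecific alkaline phosphatase that frees phosphate for mineral, was near 0 in 19 clones and high in 1. Clone N 17-23 held 344 counts, or 18.7 CPM, and the other 9 N clones held 0 to 3 counts, or at most 0.184 CPM. A clones held 0 to 14 counts, with a median of 0.190 CPM and a highest level of 0.630 CPM in A 22-16. The mean was therefore higher in N clones, at 1.90 ± 5.91 CPM against 0.249 ± 0.226 CPM (SD, n = 10 each), with 98.3% of the N sum from 1 clone, while the median of N clones was 0.0127 CPM. The direction of the fold change followed from how that clone was treated. With animal as a block the log2 fold change was 2.09 (SE 1.05, 95% interval -0.11 to 4.29, adjusted p = 0.205). DESeq2's Wald test with the same block called it, at 2.87 (adjusted p = 0.0321). Without the block it was -2.88 (adjusted p = 0.178). Leaving out N 17-23 gave 2.92 (adjusted p = 0.0332), and leaving out its partner A 17-57 gave 2.90 (adjusted p = 0.0283). Without N 17-23, the N clones that remained held at most 3 counts each. Without A 17-57, N 17-23 was the only clone of animal 17, and the block absorbed its level. In both fits the size of the fold therefore depends on the prior count of the fit and is no bound.

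SPP1 (osteopontin), a secreted phosphoprotein of bone matrix that many other cell types also make, was the member of this set with the most counts. It took 9847 to 119886 counts in N clones and 17554 to 132455 in A clones. The level ranged from 581 to 3599 CPM in N clones, with a median of 2237 CPM, and from 993 to 8675 CPM in A clones, with a median of 1816 CPM. Medians and means ran in opposite directions, since A 23-14 (8675 CPM) and A 20-106 (5044 CPM) lay above every N clone. The log2 fold change was 0.20 (SE 0.453, 95% interval -0.75 to 1.15, adjusted p = 0.779), and it was -0.23 without A 23-14. Within animals the difference in mean log2 CPM between A and N clones was -1.08, 2.80, -0.77 and 0.72 in animals 17, 20, 22 and 23, so its sign was not shared.

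**Figure D2:**
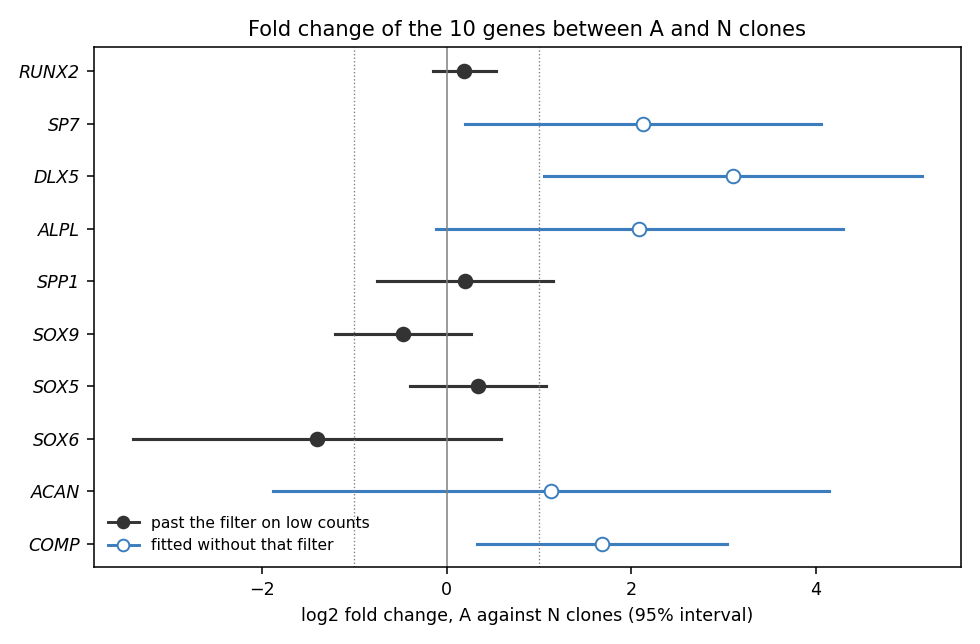
Log2 fold change of each gene in A against N clones with its 95% interval; filled points passed the filter on low counts and open points come from the fit of all genes with a count, and dotted lines mark a 2-fold change. The intervals of the 5 genes past the filter all include 0, and that of DLX5 runs from 1.06 to 5.15.

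SOX9, the factor required for cartilage formation, was present in every clone. Its level ranged from 6.20 to 57.1 CPM in N clones, with a median of 28.2 CPM, and from 11.1 to 32.0 CPM in A clones, with a median of 18.8 CPM. N clones held both the highest and the lowest levels, with 4 N clones above and 3 below every A clone. The log2 fold change was -0.47 (SE 0.350, 95% interval -1.21 to 0.27, adjusted p = 0.342). The mean was lower in A clones in animals 22 and 23, by 0.79 and 0.77 on the log2 scale, and higher in the single A clone of animals 17 and 20, by 0.86 and 1.82. The highest SOX9 level belonged to N 22-5, 1 of the 2 clones with high mesothelial markers, and N 22-9, the other, had 38.8 CPM. N 23-22 was above N 22-9 at 45.1 CPM, and N 23-74 had 35.7 CPM. Their sums of mesothelial markers were lower, at 276 and 254 CPM. Without N 22-5 and N 22-9 the fold change of SOX9 was -0.02 (adjusted p = 0.977). The part of mesothelial markers in the level of SOX9 was not tested further.

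SOX5 and SOX6 encode related factors that bind together with SOX9 at cartilage genes. SOX5 ranged from 1.47 to 6.19 CPM in N clones, with a median of 3.09 CPM, and from 1.83 to 10.3 CPM in A clones, with a median of 4.14 CPM. Only A 17-57 and A 22-121 lay above every N clone, and the log2 fold change was 0.34 (SE 0.350, 95% interval -0.40 to 1.08, adjusted p = 0.510). It was 0.11 without either clone of animal 17, N 17-23 or A 17-57, and 0.17 without A 22-121. SOX6 was the most variable of the 5 genes past the filter. It had a biological coefficient of variation of 1.26, larger than that of 98.6% of the genes tested, against 0.263 for RUNX2, which stood at the 52.1 percentile.

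SOX6 had 0 counts in N 17-23, N 20-15, A 20-106 and A 22-121. Its highest levels were 25.0 CPM in N 22-9 and 10.4 CPM in N 22-5, both above every A clone. Medians were 1.65 CPM in N and 0.544 CPM in A clones, and the log2 fold change was -1.40 (SE 0.941, 95% interval -3.40 to 0.59, adjusted p = 0.295). The highest A clones were A 22-11 at 5.02 CPM and A 22-16 at 3.40 CPM, which also had the highest sums of mesothelial markers among A clones, 1095 and 939 CPM. Without N 22-5 and N 22-9 the log2 fold change of SOX6 was -0.20 (adjusted p = 0.912). Of the 7 mesothelial markers 6 passed the filter and 1, MSLN, was called lower in A clones (log2 fold change -1.97, adjusted p = 0.0393), beside 10.3% of all genes tested. Fold changes were positive for KRT8 and KRT19, at 0.72 (SE 3.26) and 1.16 (SE 2.96), and negative for KRT18, WT1 and UPK3B, without a call. The means of KRT8 and KRT19 ran the other way. They were 121 ± 216 and 53.4 ± 85.7 CPM in A clones, and 751 ± 1654 and 407 ± 864 CPM in N clones (SD, n = 10 each). The part of mesothelial markers in the level of SOX6 was not tested.

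ACAN, the core protein of aggrecan, the large proteoglycan of cartilage, was detected above 3 counts in 3 N and 6 A clones. Its median was 0.0880 CPM in N and 0.289 CPM in A clones. The highest levels were 5.24 CPM in A 23-14 and 2.78 CPM in N 22-17, which made up 58.6% and 51.0% of the sums of their groups. The log2 fold change was 1.13 (SE 1.42, 95% interval -1.88 to 4.14, adjusted p = 0.618), and it was -1.05 without animal 23. Single clones moved it as well, to 0.12 without A 23-14 and to 2.40 without N 22-17. The interval does not exclude a change of several fold in either direction. The biological coefficient of variation of ACAN was 1.71, at the 97.2 percentile of the genes in that fit.

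COMP, the cartilage oligomeric matrix protein of the thrombospondin family, held at most 18 counts in N clones and 2 to 63 counts in A clones. Its median was 0.0682 CPM in N and 0.413 CPM in A clones. The highest N levels, 1.11 CPM in N 20-15 and 0.980 CPM in N 17-23, came from the animals with 1 clone of each kind, and the highest A level, 3.09 CPM, was in A 20-106. In animal 23 every A clone lay above every N clone, which 7.68% of the 23383 genes with a count also did. The lowest of these A clones, A 23-62, had 3 counts and the N clones had 0 or 1, all within the limit of 3 counts. The log2 fold change was 1.69 (SE 0.647, 95% interval 0.33 to 3.04, adjusted p = 0.0960). It reached an adjusted p of 0.0279 without N 17-23, of 0.0274 without A 17-57 and of 0.0246 by DESeq2's Wald test.

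**Figure D3:**
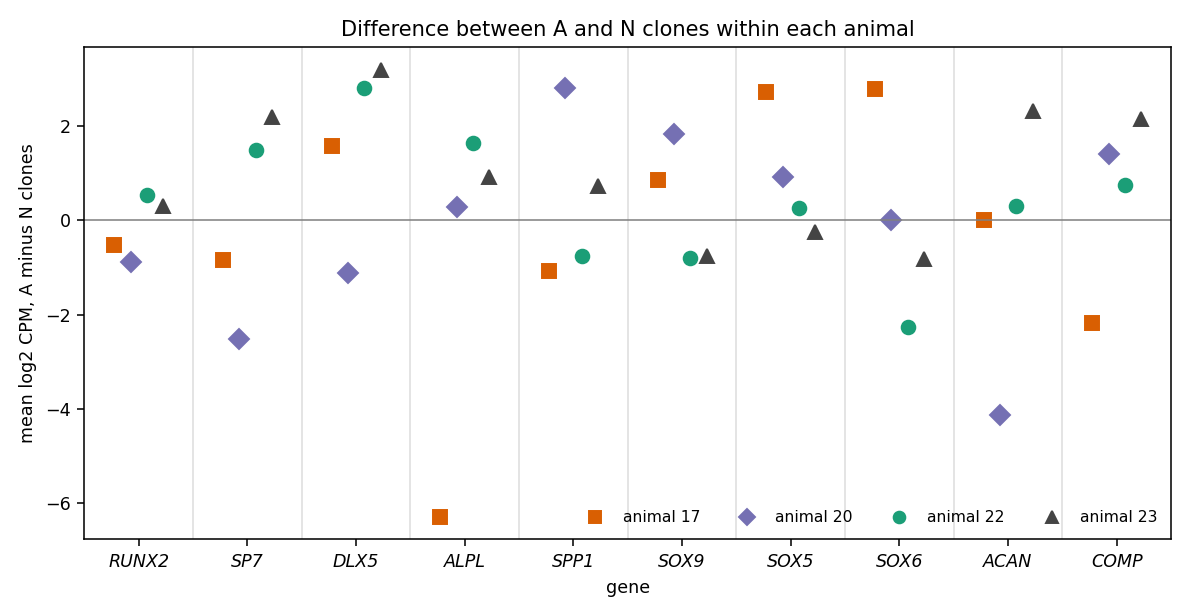
Difference in mean log2 CPM (prior count 2) between A and N clones of the same animal, for each gene; animals 17 and 20 are single pairs of clones and animals 22 and 23 are means of 4 against 4. The lowest point, ALPL in animal 17, is the clone N 17-23, and of the 10 genes SPP1 and SOX5 have animals 22 and 23 on opposite sides of 0.

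Animals 22 and 23, with 4 A and 4 N clones each, allowed the animals to be compared and the A to N difference to be tested for a change between them. Between animal 23 and animal 22, 0 of the 5 genes past the filter were called, against 0.140% of all genes tested. None of the 5 had an unadjusted p under 0.05, and DESeq2 also called 0. The largest difference was that of SOX6, with a log2 fold change of -1.77 in animal 23 (SE 0.954, adjusted p = 0.537). For the change of the A to N difference, 6 of the genes, DLX5 now among them, passed the filter on these 16 clones and 0 were called, against 0.0310% of all genes tested, with 0 at an unadjusted p under 0.05 and 0 called by DESeq2. For SPP1, which ran in opposite directions in these animals, the A to N difference was larger in animal 23 by 1.63 on the log2 scale (SE 0.792, 95% interval -0.07 to 3.32, adjusted p = 0.567), and by 0.65 without A 23-14. For DLX5 the same term was 3.93 (SE 2.06, adjusted p = 0.597). Without the filter, the term was 5.31 for ACAN and 2.85 for COMP (SE 2.25 and 1.21, adjusted p = 0.704 for both).

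The levels of the 10 genes were then set against each other over the 20 clones, as a description without a test, since clones share animals and conditions and low counts share library depth. Of 45 pairs, 7 had a Pearson r beyond 0.5 in size, and r ranged from -0.54 to 0.70. The highest was that of DLX5 and ACAN (r = 0.70, Spearman's rho = 0.71, and r = 0.79 once the mean of each animal and condition was removed). SP7 and DLX5 followed (r = 0.67, rho = 0.71, and 0.56 within animal and condition). SOX9 and SOX6 came next with r = 0.62 and rho = 0.55, which was 0.54 within animal and condition and 0.48 without N 22-5 and N 22-9. RUNX2 ran opposite to SOX9 over all clones (r = -0.54) but hardly so within animal and condition (r = -0.14).

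**Figure D4:**
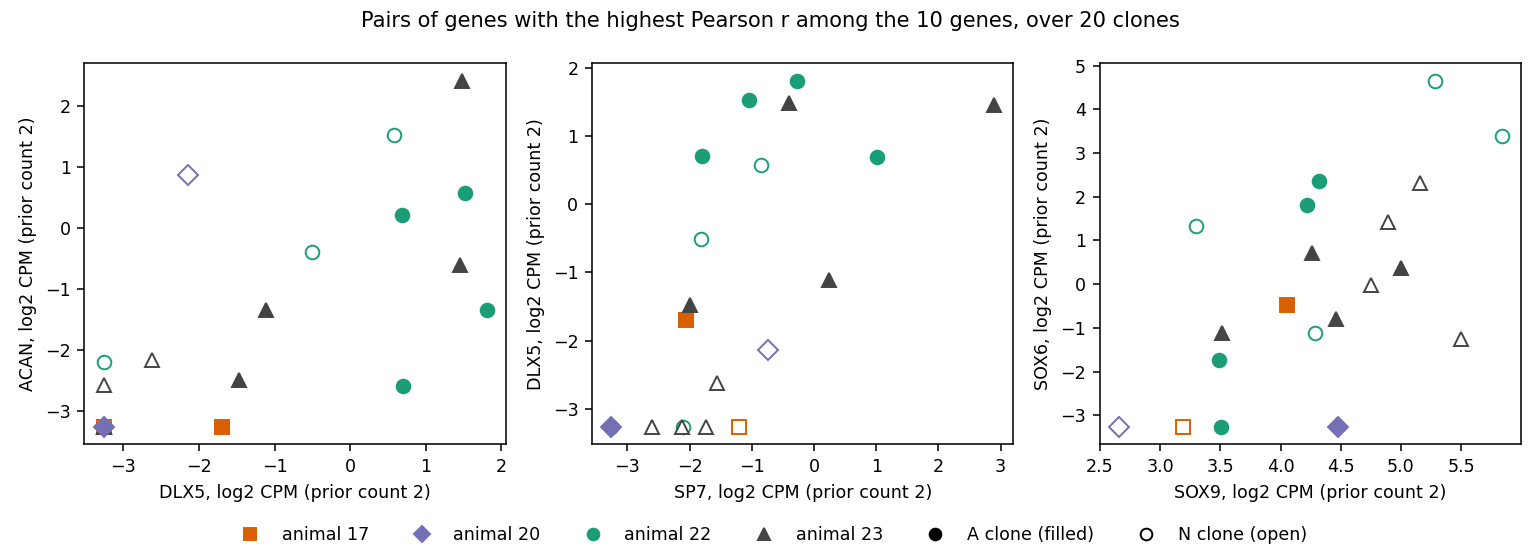
Log2 CPM (prior count 2) of the 3 pairs of genes with the highest Pearson r over 20 clones; filled symbols are A clones, open symbols N clones, and shape gives the animal. DLX5 and ACAN are both at or near their lowest values in most N clones of animal 23, and N 22-5 and N 22-9 lie at the upper right for SOX9 and SOX6.

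The 3 tested genes whose pattern was most like each member, by Pearson r of log2 CPM over 20 clones, are given as a description. Lists this short, drawn from so many genes, would seldom share a gene. They therefore do not show whether members share a pattern. For DLX5 they were BAALC, CDH18 and FAM46A (r = 0.92, 0.89 and 0.87). BAALC followed DLX5 also within animal and condition (r = 0.90). For SOX9 they were HCCS, EPHA2 and LYPLA2 (r = 0.87, 0.86 and 0.85), and for SOX6 they were LOC104974214, HTR1B and APOA1 (r = 0.87, 0.86 and 0.85). COMP was most like EDIL3, MTHFSD and ZNF699 (r = 0.83, 0.82 and 0.82), although within animal and condition these fell to 0.36, 0.41 and 0.35. RUNX2 was most like SETDB2, PIGV and TPST1, SPP1 like HIP1R, SLK and MYO1D, and SOX5 like ELOF1, SRA1 and S100A3, with r between 0.71 and 0.79. SP7 was most like ORC5, SRD5A3 and CERCAM, and ACAN like LAT, CDH11 and MIS12, with r between 0.73 and 0.77. For ALPL the 3 were EXD3, SLC27A1 and RAB31 (r = 0.81, 0.75 and 0.74). Without N 17-23 and A 22-16 the r of SLC27A1 was 0.20.

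Other genes of the bone lineage were read beside the 20.6% called over all genes tested. Of 41 genes listed, 27 passed the filter, of which 2 were higher and 1 lower in A clones, and the median log2 fold change was 0.27 against -0.01 over all genes tested. SPARC (osteonectin), a collagen-binding matrix protein, was higher in A clones (log2 fold change 0.49, SE 0.126, adjusted p = 0.0128). So was SLC20A1, a phosphate transporter (0.80, SE 0.228, adjusted p = 0.0220). LRP6, a Wnt co-receptor, was lower (-0.48, SE 0.135, adjusted p = 0.0195), a call lost without the animal block and without N 22-5 and N 22-9. COL1A1 and COL1A2, the chains of type I collagen, had log2 fold changes of 0.37 and 0.22 (adjusted p = 0.182 and 0.271). Of the genes of late osteoblasts, IBSP held at most 29 and DMP1 at most 8 counts in any clone, and MEPE had 0 counts in all clones.

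Among 43 other genes of the cartilage lineage, 24 passed the filter, of which 3 were higher and 1 lower in A clones, again beside 20.6% of all genes tested. The median log2 fold change was -0.14, a value that single clones moved: it was 0.03 without N 20-15 or without A 20-106 and -0.28 without A 23-14. It was 0.05 without N 22-5 and N 22-9, and 0.18 with no filter. With no filter, 6 of 42 genes were called, 5 higher and 1 lower, beside 11.8% of all genes fitted. COL10A1 and MATN4 were added to the calls, with at most 5 and 13 counts in any clone. CILP2, a protein of the cartilage matrix, was higher in A clones, at 2.43 ± 1.35 CPM against 0.199 ± 0.203 CPM (SD, n = 10 each). Its log2 fold change was 3.34 (SE 0.576, adjusted p = 0.00170). PTHLH, the parathyroid hormone-related signal that holds back cartilage maturation, was higher as well (3.33, SE 0.880, adjusted p = 0.0156). Its mean was 1.88 ± 1.28 CPM in A and 0.715 ± 1.39 CPM in N clones (SD, n = 10 each), and the highest clone was an N clone at 4.05 CPM, above every A clone. PAPSS2 was also higher, an enzyme that makes the sulfate donor used for proteoglycans (log2 fold change 1.2, SE 0.324, adjusted p = 0.0176). WWP2, a ubiquitin ligase known to bind SOX9, was lower (-0.38, SE 0.114, adjusted p = 0.0284). The call of WWP2 was lost in 5 of the 20 fits that left out 1 clone. PTHLH was not called without the block (adjusted p = 0.251), and of these 4 genes CILP2 alone was still called without N 22-5 and N 22-9. Without animal 23, edgeR called 0 genes of either lineage list and 29 of all genes tested. In that fit 7 genes of each list had an unadjusted p under 0.05, and the share of all genes at that level is not given here. With all clones DESeq2's Wald test called 7 of 27 bone genes and 8 of 24 cartilage genes, beside 3528 of the 12900 genes fitted.

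**Figure D5:**
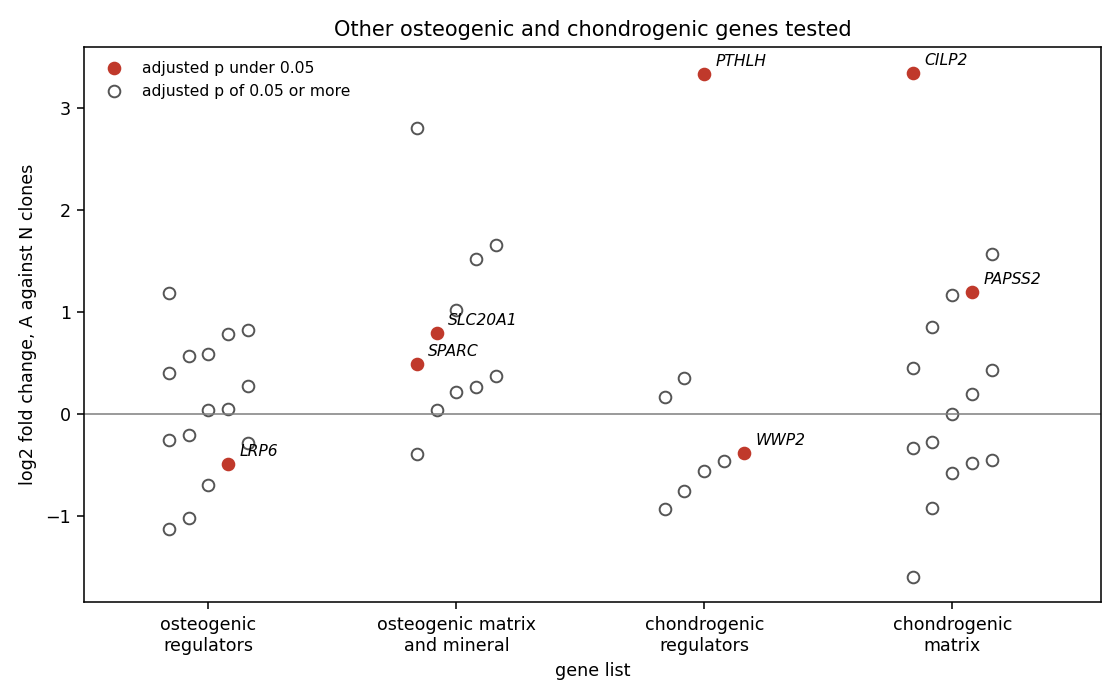
Log2 fold change in A against N clones of the other bone and cartilage genes past the filter on low counts, by list; red points have an adjusted p under 0.05 and are named. PTHLH and CILP2 lie near 3.3, SPARC, SLC20A1 and PAPSS2 between 0.49 and 1.2, and LRP6 and WWP2 at -0.48 and -0.38.

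The gene families of the 10 genes were read the same way. Neither RUNX1 nor CBFB, the partner subunit of RUNX proteins, was called (log2 fold changes 0.27 and 0.04), and RUNX3 held at most 2 counts. The 4 DLX genes past the filter, DLX1, DLX2, DLX3 and DLX4, had fold changes between -0.45 and 0.05, with 0 called, and DLX6, the chromosomal neighbour of DLX5, held at most 4 counts in any clone. In the SOX family 8 of 14 genes passed the filter and 2 of these were called, beside 20.6% of all genes tested. SOX12 was lower in A clones, at 3.82 ± 3.07 CPM against 17.9 ± 12.4 CPM (SD, n = 10 each; log2 fold change -2.15, adjusted p = 0.000795). SOX15 was higher (0.59, adjusted p = 0.0320), a call lost in 6 of the 20 fits that left out 1 clone and without the block. Of the thrombospondins 3 passed the filter and 1 was called, THBS3, beside 20.6% of all genes tested. It was lower in A clones, at 31.1 ± 11.7 CPM against 72.4 ± 34.6 CPM (SD, n = 10 each; log2 fold change -1.11, adjusted p = 0.0131). Among the RUNX, SP and DLX genes and the phosphoprotein family of SPP1, the genes past the filter gave 0 calls with edgeR and with DESeq2, and 0 of them had an unadjusted p under 0.05. DLX5 and SP7, which did not pass it, have their calls given above. Among the lecticans and link proteins of ACAN edgeR also called 0, with 1 at an unadjusted p under 0.05 and 1 called by DESeq2. VCAN (versican), the lectican with the most counts, had a log2 fold change of 0.94 (SE 0.401, adjusted p = 0.102).

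Markers of differentiated cells that could make the products of these 10 genes were summed in each clone. The sum of 5 mature osteoblast markers ranged from 0.126 to 1.5 CPM in N clones and from 0.183 to 7.72 CPM in A clones, the highest being A 23-62, of which SP7 gave 7.35 CPM. The sum of 9 mature chondrocyte markers ranged from 0.891 to 12.4 CPM in N and from 1.94 to 7.43 CPM in A clones, and COL11A2 was the 1 marker of these past the filter, with a log2 fold change of -0.48 (adjusted p = 0.479). Of 8 smooth muscle and pericyte markers 7 passed the filter. Of these, 3 were called higher in A clones, MYH11, NOTCH3 and CSPG4, beside 10.3% of all genes tested. The 8 summed to 4341 to 11063 CPM in A and 1085 to 9976 CPM in N clones. The sum of 5 tendon markers ranged from 389 to 2395 CPM in N and from 319 to 2824 CPM in A clones, nearly all of it from FMOD (fibromodulin; log2 fold change -0.58, adjusted p = 0.250), while TNMD held at most 1 count. The sum of 7 macrophage markers ranged from 0.649 to 10.4 CPM in N and from 2.75 to 11.4 CPM in A clones. CD68, the 1 macrophage marker past the filter, was called higher in A clones (log2 fold change 1.06, adjusted p = 0.0157), as were 10.3% of all genes tested. CSF1R, which the filter left out, held at most 35 counts in any clone. Its level was 0.476 to 2.38 CPM in A clones and at most 0.255 CPM in N clones. The share of all genes with ranges this far apart was not counted. C1QA and C1QB were at 0 in every clone. Endothelial markers summed to 1.07 to 41.3 CPM in N and 5.12 to 23.7 CPM in A clones. S100B, a Schwann cell marker that chondrocytes are also known to express, was called higher in A clones (log2 fold change 0.92, adjusted p = 0.00692), and SOX10, which defines Schwann cells, was at 0 in every clone. With no filter on low counts, edgeR called 1 chondrocyte, 3 macrophage, 2 smooth muscle and pericyte and 1 Schwann marker. It called 0 osteoblast, tendon, endothelial or mesothelial markers, beside 11.8% of all genes in that fit. The part of these markers in the levels of the 10 genes was not tested.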

How the data were processed

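RNA of 20 undifferentiated MSC clones was sequenced. The deposited values are raw counts per gene and clone: the authors trimmed reads with Trimmomatic 0.36, mapped them with STAR 2.5.2b and counted unique exonic reads with Subread 1.5.2. The build named in the submitters' processing notes is ARS-UCD1.2; no coordinates are given here. A row without a name, with 0.113% to 0.333% of the counts of a clone, was left out, and 0 columns came from samples outside the series. Condition, animal and clone were taken from the sample titles.

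Counts were fitted in R 4.3.3 with edgeR 4.0.16 (TMM, default filter on condition, robust quasi-likelihood F test, Benjamini-Hochberg adjustment, threshold 0.05) with animal as a block, because A and N clones shared animals. SE is the fold change divided by the root of F. Genes left out by the filter were fitted with all genes of at least 1 count. The pairing comes from the animals: the mean deviation of an animal's A clones from all A clones was correlated across genes with that of its N clones (r = 0.253 in animal 17, 0.193 in 20, 0.241 in 22 and 0.440 in 23). Clones of 1 animal share a donor, so p-values measure the spread between clones of 4 animals. No pair of clones agreed within sampling noise (chi-square per degree of freedom at least 19.8). Limits for counts of 0 cover counting error only.

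Alternatives were no block, DESeq2 size factors, upper-quartile scaling, other filters, DESeq2 1.42.0, limma-voom (limma 3.58.1), no robust dispersion, each animal or clone left out, animals alone, and counts summed per animal. Leaving out N 22-5 and N 22-9 together was chosen after seeing the data. The tests were checked on simulated counts. The members and gene lists were chosen with earlier results of these data known. All 10 members were named, then up to 4 called genes per direction of each list, and the 3 genes most like each member; other genes named were chosen after their values were seen.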

Additional observations from a re-analysis of the deposited data

Results flagged for a closer look

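One of the 20 groups examined, ALPL in N clones, had a clone far from the others: on the log2 CPM scale the gap between N 17-23 and the next N clone took 0.804 of the range of the 10 N clones. Chance gives about 1 such group in 20. N 17-23 had 344 counts of ALPL (18.7 CPM) and the next N clone, N 20-15, had 3 (0.184 CPM). The same clone had the highest level of RUNX2 among N clones (138 CPM) and the second highest of COMP (0.980 CPM), and 6 counts of SP7. Its partner from the same animal, A 17-57, had 2 counts of ALPL.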

How the results depend on the processing

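The depth and the spread between clones limited what could be shown for the low genes: SP7, DLX5, ALPL, ACAN and COMP did not pass the filter, and their intervals span several fold. The count of 2658 genes called between A and N clones became 1519 without animal 22, 29 without animal 23, 102 in animal 22 alone, 846 in animal 23 alone and 0 with counts summed per animal and condition (2091 at an unadjusted p under 0.05, against 4663 with all clones). The count past 2-fold, 743, became 1276 with no filter, 365 with at least 10 counts in every clone, 20 without animal 23, 93 in animal 22 alone and 0 with summed counts. DESeq2's Wald test called 274 genes between animals, in place of 18, and 116 for the interaction, in place of 4, and with 1 clone left out these counts ranged from 5 to 96 and from 0 to 9 (the 0, without N 23-74, with 1063 at an unadjusted p under 0.05). In every one of these fits 0 of the members past the filter were called.

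The fold change of SPP1 turned to -0.0507 without animal 20, -0.34 without animal 23 and -0.73 in animal 22 alone, and lay between -0.23 and 0.35 with 1 clone left out. RUNX2 turned to -0.0214 without animal 22 and -0.14 with summed counts, SOX9 to 0.32 with summed counts, SOX5 to -0.25 in animal 23 alone, and ACAN to -1.05 without animal 23, -0.39 in animal 22 alone and -0.20 with summed counts. Without the replicate block ALPL turned to -2.88 and DLX5 lost its call (adjusted p = 0.0823); the block changed no other call of a member. Between animals, leaving out 1 clone gave -0.25 to 0.44 for SPP1 and -0.00313 to 0.16 for RUNX2; for the interaction it gave -0.13 to 0.63 for SOX9, -0.29 to 1.69 for SOX6, 0.65 to 1.92 for SPP1 and 2.45 to 5.64 for DLX5. Between A and N clones it gave 0.11 to 0.31 for RUNX2, -0.69 to -0.26 for SOX9, 0.11 to 0.47 for SOX5, -1.72 to -0.84 for SOX6 and 0.12 to 2.40 for ACAN. The cause of these changes was not tested. DLX5 was called in 13 of 34 alternatives, and its direction was the same in all 34. Scaling by DESeq2 size factors or the upper quartile moved the median of all genes by less than 0.1 and changed no direction or call of a member.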

Other observations

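Some genes of the lists, chosen after their values were seen, were high in a single clone. BARX1, a homeobox factor of the developing skeleton and gut, had 37.8 CPM in A 17-57 and at most 3.72 CPM elsewhere. SOX8, a close relative of SOX9, had 24.8 CPM in the same clone and at most 3.26 CPM elsewhere. A 17-57 was also the highest clone for SOX5, at 10.3 CPM.

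SOX2, a factor of stem and neural cells that the filter on low counts left out, had a median of 0 CPM in N clones, with 7 of 10 at 0 counts and a highest level of 0.269 CPM in N 22-17. In A clones its median was 0.536 CPM. The highest SOX2 levels were 4.20 CPM in A 22-121 and 2.43 CPM in A 22-27, and A 17-57 and A 20-106, the clones of animals 17 and 20, had 0 and 1 counts. BAALC, the gene most like DLX5, had 0 to 1.88 CPM in N clones and 0.256 to 5.48 CPM in A clones, and N 22-17 was the highest N clone for both DLX5 and BAALC.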
